A study of Homo sapiens with 8 samples.

Results

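The keratin genes of the array were examined in FaDu, PC3 and PANC-1 cells. Every gene named KRT with a number and at most 1 letter was taken, which gave 55 keratins among the 43317 genes of the array, measured by 64 of its 58201 gene probes. Of these, 34 keratins passed the scanner software's call "well above background", which marks a spot as clearly brighter than its background, on some array and in some channel, and 21 never passed it. All values below come from 8 Agilent 2-colour arrays, each holding 1 transfected sample in Cy5 (red) and 1 mock sample of the same cell line in Cy3 (green), with 1 array per condition. No dye swap was made, so a dye effect and the effect of transfection cannot be told apart for a gene. FaDu, a hypopharyngeal squamous cell carcinoma line, received miR-99a-5p or miR-99a-3p. PC3, a prostate cancer line, received miR-150-5p, miR-150-3p, miR-99a-3p or miR-100-3p. PANC-1, a pancreatic cancer line, received 1 of 2 siRNAs against the transcription factor FOXQ1, named si-FOXQ1-1 and si-FOXQ1-2. The submitters called the controls mock and gave their transfection as none, and no control oligonucleotide was named for them.

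Keratins are the intermediate filament proteins of epithelial cells. Each filament is built from pairs of a type I (acidic) and a type II (basic) keratin, so the genes tend to be used in partners. KRT8 and KRT18 with KRT7 and KRT19 mark simple epithelia, KRT5 and KRT14 the basal layer of stratified epithelia, KRT6A, KRT6B, KRT6C, KRT16 and KRT17 are the keratins of wounded or activated keratinocytes, KRT4 and KRT13 those of mucosal squamous epithelium, and a large group including KRT81, KRT83 and KRT86 builds hair and nail. The probes followed the known clusters of the family. In hg19, the build that the array's annotation uses, the 26 type II keratins and the type I gene KRT18 lay on chromosome 12, and the other 28 type I or related genes on chromosome 17.

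The labels name 5 miRNAs, and RefSeq mature sequences (GRCh38.p14) were at hand for 3 of them. They are shown because the miR-99a-3p arrays held the most keratins past a log2 ratio of 1 or -1, while miR-99a-5p comes from the other arm of the same hairpin and miR-100-3p is a close relative. Capitals mark the seed, bases 2 to 8, through which a miRNA mainly recognises its targets.
miR-99a-5p: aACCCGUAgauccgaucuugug
miR-99a-3p: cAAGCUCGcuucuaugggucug
miR-100-3p: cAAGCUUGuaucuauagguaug
miR-99a-3p and miR-100-3p shared 17 of 22 bases and differed inside the seed by C7U, counted from the 5′ end of miR-99a-3p. The seed of miR-99a-5p was unlike both.

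Before the keratins are compared, the controls need a word. The mock channels of the 2 FaDu arrays differed by no more than repeated spots of 1 probe did, with a robust SD of the log2 difference that was 0.93 times the value from repeated spots. The same held for the 2 PANC-1 arrays (0.98), for the PC3 arrays of miR-150-5p and miR-150-3p (0.92) and for those of miR-99a-3p and miR-100-3p (0.91), while mock channels across these PC3 pairs gave 2.14 to 2.26 times the value from spots. Each such pair was therefore counted as 1 mock RNA, which left 1 for FaDu, 2 for PC3 and 1 for PANC-1, and the arrays of a pair share their control. FaDu mock was well above background on both arrays for 8 of 9 squamous markers, against 4 of 9 in PC3 and 1 of 9 in PANC-1. PC3 carried 6 of 9 prostate markers, with KLK3 (prostate-specific antigen) and ACPP not well above background, and FaDu and PANC-1 carried 4 of 9 each, HOXB13 among them in all 3 lines. Each line carried 3 of 9 pancreatic duct markers, so this list did not set PANC-1 apart, and CFTR, PDX1 and SPP1 were not well above background there. FOXQ1, the siRNA target, had a log2 ratio of -2.16 ± 0.29 with si-FOXQ1-1 and -2.12 ± 0.28 with si-FOXQ1-2. Here and below, the error of a log2 ratio is the error the scanner software gives for that spot.

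KRT5, KRT14, KRT17 and KRT6C were well above background in FaDu mock cells alone, while other squamous keratins were shared with PC3 or with both lines. Mock levels are given as Cy3 signals scaled to a common 75th percentile, and they compare a gene between lines, never a gene with another gene, because probes differ in brightness. KRT5, the type II keratin of basal keratinocytes, had scaled signals of 22407 and 23584 on the FaDu arrays, while its PC3 signals of 3.53 to 4.91 and PANC-1 signals of 4.61 and 4.77 were not well above background. The FaDu level was thus at least 1469-fold higher than in PC3 and at least 1190-fold higher than in PANC-1. KRT14, its type I partner, had 80398 and 82148 in FaDu and was at least 5192-fold higher than in PC3. KRT17 had 98396 and 97297 and was at least 6251-fold higher. These 3 genes were dim on every PC3 and PANC-1 mock channel.

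The activation keratins followed the same order with less distance for some. KRT6C was at least 210-fold higher in FaDu than in PC3, from scaled signals of 3237 and 3341. KRT6A had 21158 and 22267 in FaDu. It was just above background in 1 PC3 mock RNA (16.1 and 20.5) and dim in the other and in PANC-1. KRT16 had 723 and 701 in FaDu, 15.6 to 56.3 in PC3 with 3 of 4 channels above background, and was at least 36.9-fold higher in FaDu than in PANC-1. KRT6B had 130 and 122 in FaDu, 6.35 to 21.97 in PC3, above background in the first PC3 mock RNA only, and was dim in PANC-1. Of the mucosal pair, KRT13 had 259 and 219 in FaDu, 58.0 to 84.2 in PC3 and 34.2 and 33.5 in PANC-1. KRT4 had 284 and 261 in FaDu, 76.4 and 61.0 in the first PC3 mock RNA and was dim in the second and in PANC-1.

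**Figure D1:**
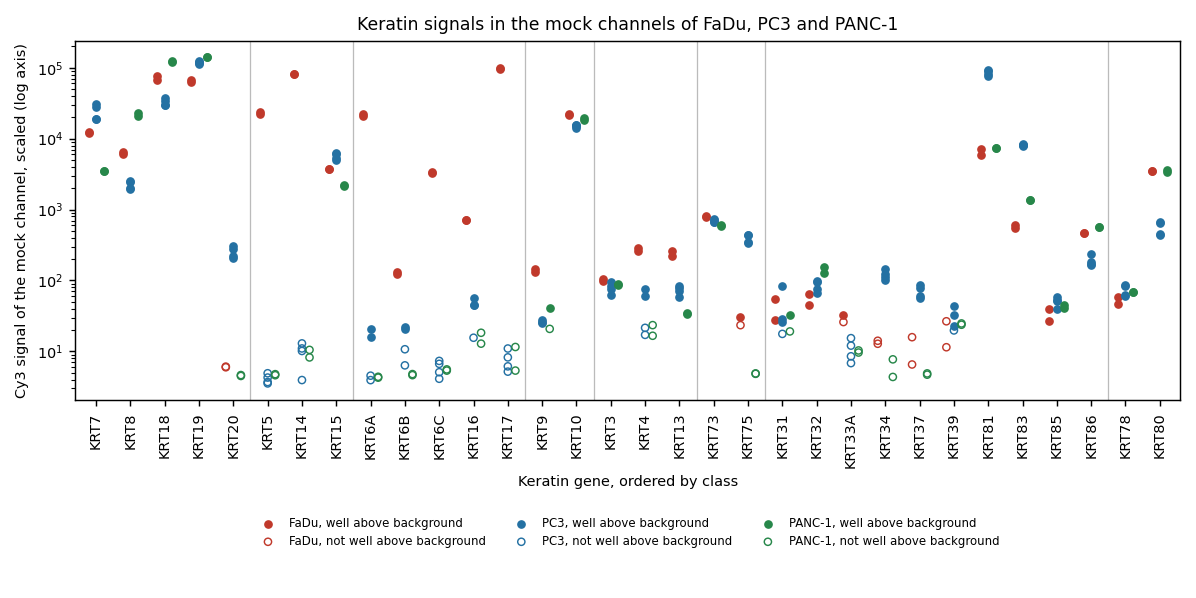
Scaled Cy3 signal (log axis) of the 32 keratins well above background in at least 1 mock channel, with 1 point per mock channel and hollow points for channels not well above background. Vertical lines separate the keratin classes, and KRT5, KRT14, KRT6C and KRT17 are filled in FaDu alone.

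Of the simple epithelial keratins, KRT7, KRT8, KRT18 and KRT19 were measured in all 3 lines. KRT8 was highest in PANC-1 (23014 and 20862), intermediate in FaDu (6170 and 6485) and lowest in PC3 (1960 to 2488). Its partner KRT18 kept this order, with 123899 and 120385 in PANC-1, 76585 and 66796 in FaDu and 29590 to 36889 in PC3. KRT7 ran the other way. It was highest in PC3 (18900 to 30854), then FaDu (11827 and 12362), then PANC-1 (3484 and 3547), but FaDu and PC3 did not differ beyond the test (limma adjusted p = 0.0811). KRT19, the keratin without a tail domain, lay between 63768 and 141530 in all lines. Its log2 difference from PC3 was 0.26 in PANC-1 and -0.84 in FaDu, and neither reached the 1 log2 unit needed for a call below. The FaDu difference did pass the limit on p (limma adjusted p = 0.0186). KRT20, a keratin of gut and urothelium, was well above background in PC3 alone (207 to 307), at least 10.6-fold higher there than in FaDu and at least 13.0-fold higher than in PANC-1. KRT15, a basal type I keratin, did not follow KRT5 and KRT14: it was measured in every line, at 4931 to 6273 in PC3, 3776 and 3766 in FaDu and 2115 and 2253 in PANC-1.

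PC3 stood apart by the hair keratins KRT81, KRT83, KRT34 and KRT37. The hair keratins KRT31, KRT32, KRT39 and KRT85 were not called between PC3 and another line by the test below. KRT81 had scaled signals of 75626 to 94396 in PC3, 5887 and 7127 in FaDu and 7313 and 7336 in PANC-1, with a log2 difference of -3.71 ± 0.16 between FaDu and PC3 (SE, limma adjusted p = 0.00167). KRT83 had 8005 to 8350 in PC3, 549 and 608 in FaDu and 1353 and 1374 in PANC-1 on its brightest probe. Its other probe was well above background in PC3 mock alone, with unscaled signals of 1406 to 2156. KRT34 and KRT37, type I hair keratins, were well above background on all 4 PC3 mock channels (102 to 144 and 56.1 to 86.3) and on none of the others. KRT75, a keratin of the hair follicle's companion layer, had 336 to 440 in PC3, 30.4 and 23.4 in FaDu with only the first above background, and was dim in PANC-1. KRT86 went against these, with 164 to 237 in PC3, 468 and 460 in FaDu and 573 and 566 in PANC-1. KRT80, an epithelial type II keratin, was likewise lowest in PC3 (432 to 665), and its FaDu and PANC-1 values overlapped (3495 and 3511, 3602 and 3382). KRT10, the suprabasal type I keratin, ranged only from 14206 to 22161 over the 8 channels, and KRT73 from 578 to 818.

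Among the remaining tested keratins, KRT9 and KRT32 differed by at least 1 log2 unit between some lines. KRT32, a type I hair keratin, had scaled signals of 64.6 and 45.3 in FaDu, 67.2 to 97.6 in PC3 and 155 and 129 in PANC-1, and was not called in the tested comparisons. KRT9, the type I keratin of palm and sole skin, had scaled signals of 146 and 133 in FaDu and 25.4 to 27.5 in the 3 PC3 channels left after outlier spots were removed, a log2 difference of 2.41 ± 0.15 (SE, limma adjusted p = 0.00275). KRT3, the corneal type II keratin, had 61.7 to 104.6 over the 8 mock channels, KRT78 46.5 to 86.9 and KRT85, a hair keratin, 27.2 to 59.3, and none of these was called in a tested comparison. KRT33A was well above background on 1 FaDu channel alone and KRT39 on 3 PC3 channels alone. The 21 keratins never well above background were KRT1 and KRT2 of the suprabasal epidermis, KRT12 and KRT76, the inner root sheath keratins KRT25, KRT26, KRT27, KRT28, KRT71, KRT72 and KRT74, the hair keratins KRT33B, KRT35, KRT36, KRT38, KRT40 and KRT82, and KRT24, KRT77, KRT79 and KRT222.

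Of the 55 keratins, 31 were well above background in at least 2 mock channels and were tested by limma together with all other such genes, 22752 in number. Between FaDu and PC3, 13 keratins were higher in FaDu and 6 lower at an adjusted p below 0.05 and a log2 difference of at least 1. The same call held for 19.3% of all tested genes in the higher direction and 20.7% in the lower. The 6 lower keratins were KRT20, KRT34, KRT37, KRT75, KRT81 and KRT83, and KRT4 missed the call (log2 difference 2.91 ± 0.86, SE, limma adjusted p = 0.0596). Between PANC-1 and PC3, 4 keratins were higher in PANC-1 (15.6% of all tested genes) and 9 lower (16.2%). Those higher in PANC-1 were KRT8, KRT18, KRT80 and KRT86. KRT8 had the largest log2 difference among them, 3.31 on its brightest probe. Its dimmest probe was also higher in PANC-1, at unscaled mock signals of 308 and 319 against 17.6 to 45.1 in PC3. The signal of 17.6 was not well above background. Another KRT8 probe did not show the difference, at unscaled signals of 985 and 872 in PANC-1 and 972 to 1697 in PC3. FaDu and PANC-1 each had 1 mock RNA, so their comparison has no replicate check. By size alone, 14 keratins were at least 1 log2 unit higher in FaDu (18.7% of all tested genes) and 4 lower (20%), the 4 being KRT8, KRT19, KRT32 and KRT83. KRT34 and KRT37 are among those higher although both were not well above background in either line. KRT8 and KRT83 are among those lower by their brightest probes. A second KRT8 probe did not show this, and the other KRT83 probe was dim in both lines. In the tested comparisons, the lone FaDu and PANC-1 samples were assumed to vary like the 2 PC3 mock RNAs, whose difference is the only measured spread, and nothing says that these were separate cultures. With the Cy3 call required on all 8 arrays, which drops every keratin silent in a line, fewer keratins were called between FaDu and PC3 in either direction.

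The genes that anchor keratins are read against 19.3% higher, 20.7% lower and a median difference of 0.10 over all genes tested between FaDu and PC3. Of 10 tested desmosome genes, 7 were higher in FaDu than in PC3 (among them DSG3, a desmosomal cadherin of stratified epithelium) and PKP1 was lower, with a list median log2 difference of 2.22. Of 10 hemidesmosome and linker genes, 3 were higher and 2 lower, with a median of 0.37. Of 14 tested epithelial transcription factors, 9 were higher in FaDu than in PC3, TP63, the regulator of basal keratinocytes, among them, and TFAP2C was lower. Among the other intermediate filament genes the direction turned: 8 of 14 were lower in FaDu than in PC3 and 3 higher. VIM (vimentin), the filament gene of mesenchymal cells, had mean scaled signals of 61.6 in FaDu, 78331 in PC3 and 151570 in PANC-1.

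In FaDu, miR-99a-3p went with keratin ratios in both directions. On this array 4 of 5 activation keratins and 2 of 3 basal keratins were below 0, and all 4 simple epithelial and all 6 hair keratins with both channels above background were above 0, with KRT6B, KRT15 and 1 KRT8 probe against their class. Of 29 keratins above background in at least 1 channel, 7 had a log2 ratio below -1 and 9 above 1, together 55.2% of them. Among all 19184 such genes, 9.37% lay below -1 and 8.25% above 1. The keratin median was 0.52, against -0.03 for all genes, and it depended on the processing: 0.30 with both channels above background, 0.26 with normexp and loess, 0.22 with the mean mock of the line as control and 0 with no filter. With normexp and loess, 10 keratins in place of 16 were past 1 or -1. With both channels above background, 26 keratins were left, of which 6 lay above 1 (7.68% of all such genes) and 7 below -1 (5.48%). No test can be given, since the condition has 1 array.

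The lowest ratios were in the activation class. KRT6C had a mock signal of 4162 and a transfected signal of 504, a log2 ratio of -3.05 ± 0.35. KRT6A went from 27736 to 3908 (log2 ratio -2.83 ± 0.33). KRT16, the type I partner of KRT6, went from 873 to 254 (-1.78 ± 0.27). Its other probe was dim in both channels with a deposited ratio of 0, so the mean over the probes was -0.89. KRT17 went from 121196 to 36653 (-1.73 ± 0.26). KRT6B ran against the other 4 of its class, from 152 to 346, a log2 ratio of 1.19 ± 0.24. It stayed above 0 under every setting tried (lowest 0.81).

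The basal pair was lower as well. KRT14 went from 102327 to 32442 (log2 ratio -1.66 ± 0.25), and its other, dimmer probe gave -1.80 ± 0.26. KRT5 went from 29377 to 13037 (-1.17 ± 0.23). KRT15, the third basal keratin, was higher, 4692 to 7938 (0.76 ± 0.22). Of the mucosal pair, KRT4 went from 325 to 140 (-1.22 ± 0.25), though normexp background correction gave -0.70, and KRT13 from 273 to 220 (-0.31 ± 0.22). KRT10 went from 27604 to 18915 (-0.55 ± 0.21). Every one of these genes except KRT15 and KRT10 was higher in FaDu mock than in PC3 mock by at least 1 log2 unit.

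The simple epithelial keratins were all above 0. KRT7 went from 15399 to 29707 (0.95 ± 0.22), KRT18 from 83204 to 119295 (0.52 ± 0.21) and KRT19 from 79432 to 91164 (0.20 ± 0.20). KRT8 went from 8078 to 12203 (0.60 ± 0.21) on its brightest probe, but a second KRT8 probe gave -0.37 ± 0.21, so the 3 probes of this gene did not share a direction. All 6 hair keratins with both channels above background were above 0, with a median of 1.10. Among them were KRT86 (573 to 1554, 1.44 ± 0.24), KRT83 (757 to 1727, 1.19 ± 0.23) and KRT81 (8877 to 11801, 0.41 ± 0.21). KRT32 (56.5 to 201, 1.83 ± 0.31) and KRT31 (34.3 to 69.6, 1.02 ± 0.43) followed, and normexp correction moved them to 0.90 and 0.26. KRT80 went from 4373 to 9070 (1.05 ± 0.23). KRT75, KRT23 and KRT84 had no mock signal well above background and a transfected signal that was: 446 for KRT75, at least 14.9-fold higher than the mock limit, 56.0 for KRT23, at least 1.87-fold, and 53.0 for KRT84, at least 1.76-fold. With the highest undetected signal as the limit, these became 10.02, 1.26 and 1.19. The other KRT23 probe was not well above background in either channel of this array.

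**Figure D2:**
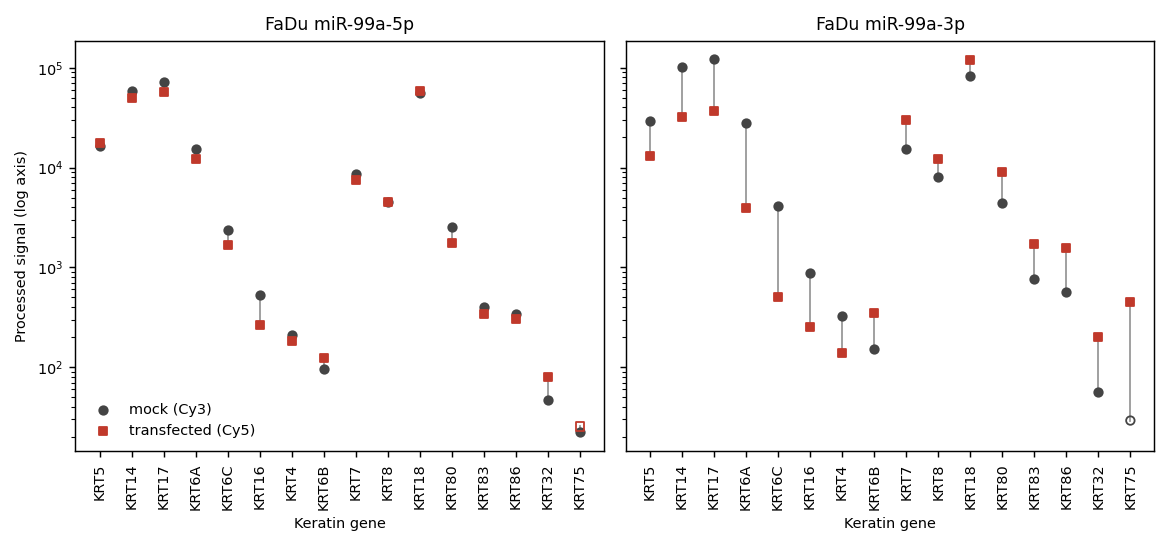
Processed signals (log axis) of 16 keratins on the 2 FaDu arrays, with circles for the mock channel, squares for the transfected channel and hollow symbols where a channel was not well above background. Circles and squares nearly coincide for most genes with miR-99a-5p, while with miR-99a-3p the squares lie below the circles from KRT5 to KRT4 and above them from KRT6B to KRT75.

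Of the keratins higher on this array, KRT75, KRT81 and KRT83 were also higher in PC3 mock than in FaDu mock, so the marker lists are given beside them, and their part in the result was not tested. HOXB13, a prostate gene, went from 163 to 763 in FaDu with miR-99a-3p. Of 6 detected prostate markers, 4 had a log2 ratio above 1 and none below -1, against 8.25% and 9.37% of all detected genes. Among the 4, ACPP and STEAP2 had no mock signal well above background. TMPRSS2, which PC3 expressed, was not well above background in this transfected sample, nor were KRT20, KRT34 and KRT37. VIM had a signal of 79.6 in the mock and 84.8 in the transfected channel. Of the 9 squamous markers, 3 were below -1 (DSG3, DSC3 and PKP1) and 2 above 1 (FAT2 and CLCA2), to be read against the same shares. CLCA2 had no mock signal well above background, and TP63 went from 347 to 202.

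Some keratin probes resemble each other. The most similar 30 bases of the KRT6C and KRT75 probes are shown because these genes went opposite ways on this array. Capitals mark the bases that differ.
KRT6C: gacCATgtcaagaagcagtgtGccagcCtg
KRT75: gacAGCgtcaagaagcagtgtTccagcTtg
They shared 25 of 30 bases and differed by C4A, A5G, T6C, G22T and C28T, counted from the first base shown of KRT6C. The KRT6C probe is annotated to chr12:52863651-52864324 and the KRT75 probe to chr12:52822220-52822420 in hg19, both on the minus strand and both spanning more than the probe's length. KRT6A, KRT6B and KRT6C on the one hand and KRT81, KRT83 and KRT86 on the other are close copies of each other, and which transcripts each probe binds was not tested.

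Genes that anchor or surround keratins are set here against the shares over all detected genes, 8.25% above 1 and 9.37% below -1. Among 10 detected desmosome genes, 3 lay below -1 with miR-99a-3p and none above 1, with a median of -0.27. DSG3 went from 3210 to 839 (log2 ratio -1.94 ± 0.27), DSC3 from 824 to 231 (-1.84 ± 0.27) and PKP1, a plakophilin, from 261 to 94.6 (-1.46 ± 0.27). PLEC (plectin), which ties keratins to hemidesmosomes, went from 7819 to 2721 (-1.52 ± 0.25) and was the only one of 10 linker genes past 1 in either direction. Among 7 detected genes of the cornified envelope, the hardened shell of keratinocytes, 3 lay below -1: SPRR2A (-2.20 ± 0.30), TGM1, the transglutaminase that cross-links it (-2.07 ± 0.28), and CSTA (-2.03 ± 0.28). Of 13 other intermediate filament genes, 6 lay above 1 and PRPH (peripherin) below -1, at -3.28 ± 0.37. NEFM had the largest value of the 6, 3.26 ± 0.39, and NES (nestin) had 2.59 ± 0.34. ESRP1, an epithelial splicing factor, went from 7830 to 1236 (-2.66 ± 0.32), SOX2 from 87.9 to 446 (2.34 ± 0.31) and TFAP2A from 209 to 548 (1.39 ± 0.25).

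With miR-99a-5p, which shared its FaDu mock RNA with the array above, no keratin of 28 detected was past 1 in either direction, against 0.851% of all detected genes above 1 and 4.86% below -1, or 0.894% and 0.165% of those with both channels above background. The keratin median was -0.01. KRT16 came closest, from 530 to 267, a log2 ratio of -0.99 ± 0.23. KRT80 had -0.55 ± 0.21 and KRT6C -0.50 ± 0.21. KRT15 had 0.63 ± 0.21 and KRT32 0.74 ± 0.29. KRT5 (0.09), KRT14 (-0.24), KRT17 (-0.34) and KRT6A (-0.35) had spot errors of 0.20 to 0.21. No desmosome, linker or cornified envelope gene among those detected was past 1. Of 13 other intermediate filament genes, 3 lay above 1, namely NEFL (1.83 ± 0.27), NEFM (1.43 ± 0.42) and VIM (1.00 ± 0.34), and SYNM lay below -1 with a dim transfected channel.

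In PC3, miR-99a-3p went with lower signals for 13 of the 19 keratins above background in both channels and higher signals for 6. Among the 6 were KRT3 (log2 ratio 0.60 ± 0.27), KRT85 (0.51 ± 0.29) and KRT78 (0.45 ± 0.24). Of 23 detected keratins, 8 lay below -1 and none above 1, against 7.39% and 4.23% of all detected genes. The keratin median was -0.55, against 0.02 for all genes, and -0.34 against 0.07 with both channels above background. With both channels above background, 5 of 19 keratins lay below -1 and none above 1, against 3.99% and 4.18% of all such genes. KRT83 went from 11952 to 4422 (log2 ratio -1.43 ± 0.24), KRT81 from 140944 to 62779 (-1.17 ± 0.23) and KRT7 from 28386 to 13080 (-1.12 ± 0.23). KRT80 went from 671 to 315 (-1.09 ± 0.23) and KRT19 from 185711 to 88822 (-1.06 ± 0.23). Normexp correction left 3 keratins below -1.

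All 5 simple epithelial keratins were below 0 on this array. KRT18 had -0.57 ± 0.21, KRT20 -0.34 ± 0.22 and KRT8 -0.26 ± 0.21, and a second KRT8 probe gave 0.14 ± 0.20. KRT15 had -0.55 ± 0.21, KRT75 -0.98 ± 0.23 and KRT32 -0.99 ± 0.31. KRT34, KRT37 and KRT13 were no longer well above background after transfection, which bounds them at least 3.28-fold, at least 2.75-fold and at least 1.89-fold lower. With the highest undetected signal as the limit, these became 2.07, 1.75 and 1.18. KRT86 (-0.12 ± 0.22), KRT10 (-0.09 ± 0.20) and KRT73 (0.04 ± 0.21) lay within their errors of 0. KRT31 had no ratio past its error (0.08 ± 0.25), but its mock signal stood apart, at a scaled 84.8 against 17.6 on the other array of the same mock RNA.

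**Figure D3:**
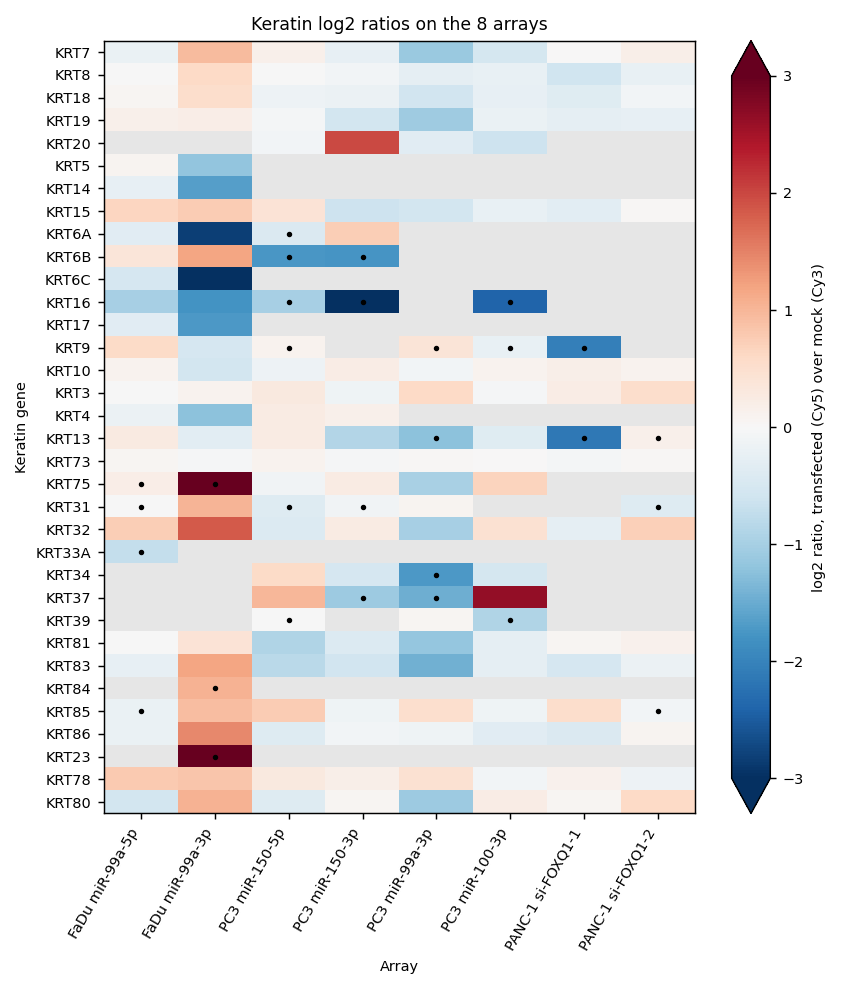
Log2 ratios of transfected over mock signal for the 34 detected keratins on the 8 arrays, red above 0 and blue below, with the colours ending at 3 and -3. Grey cells were not well above background in either channel and dots mark cells with 1 channel above background. The FaDu miR-99a-3p column holds the darkest cells of both colours, from KRT6C at -3.05 to KRT75 at 3.93, and the FaDu miR-99a-5p column is pale.

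Set side by side, the 2 lines given miR-99a-3p had 16 keratins with both channels above background on both arrays. Of these, 10 were above 0 in FaDu and below 0 in PC3, 1 was below in FaDu and above in PC3, and 5 had the same sign. Over all 14882 genes measured in this way, 23.8% were above in FaDu and below in PC3 and 26.4% the reverse. The ratios of KRT19 in FaDu, KRT86 in PC3 and KRT73 in both lay within their spot error of 0. The medians were 0.80 in FaDu and -0.41 in PC3. KRT83 differed by 2.62 log2 units (combined spot error 0.34), KRT32 by 2.82 (0.43), KRT80 by 2.14 (0.32) and KRT7 by 2.07 (0.32). KRT81 differed by 1.58 (0.31) and KRT86 by 1.56 (0.33). KRT10, KRT3, KRT31, KRT78 and KRT85 were the 5 of the same sign. With 1 array per line the difference was not tested, and the basal and activation keratins with the lowest ratios in FaDu could not be compared, because on the PC3 array they were not well above background in both channels. Outside the family, LMNB1 (lamin B1) was also opposite, 2.17 ± 0.29 in FaDu and -1.79 ± 0.26 in PC3, and LMNB2 likewise, 1.45 ± 0.25 and -1.11 ± 0.23.

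**Figure D4:**
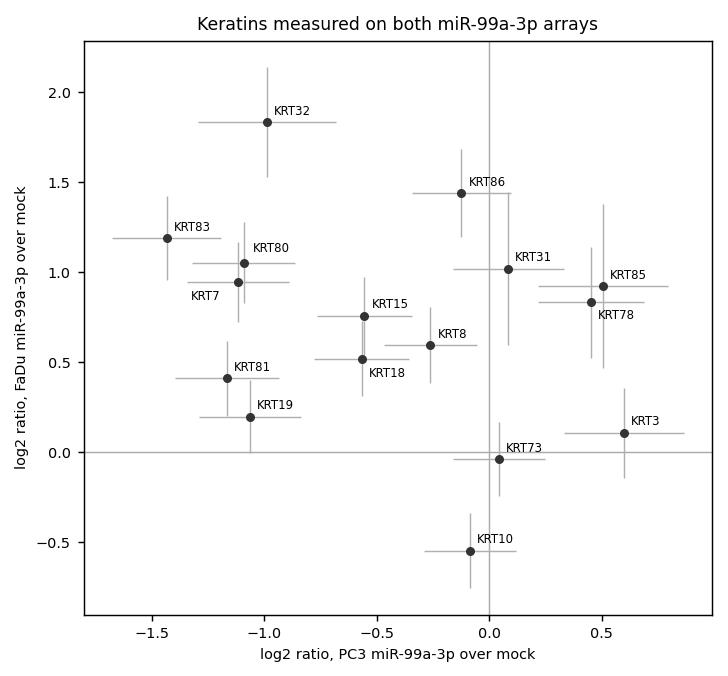
Log2 ratio on the FaDu miR-99a-3p array (vertical) against that on the PC3 miR-99a-3p array (horizontal) for the 16 keratins measured in both channels of both, with bars for the spot error of each ratio. Of the 16 points, 10 lie to the upper left of both zero lines, with KRT83, KRT80, KRT7 and KRT32 farthest out.

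The relative of this miRNA, in the same line and against the same mock RNA, went with fewer keratins past 1 or -1. Most ratios were below 0 here too: 14 of 20 keratins with both channels above background, with a median of -0.20 against 0.01 for all such genes. For miR-99a-3p these were 13 of 19 and -0.34 against 0.07. All 5 simple epithelial keratins were below 0 on both arrays. With miR-100-3p, 1 keratin of 23 detected was above 1 and 1 below -1, against 0.987% and 3.34% of all detected genes. KRT37 went from 73.6 to 457 (log2 ratio 2.63 ± 0.32) and was the only keratin past 1 with both channels above background, where 0.944% of all such genes lay above 1 and 0.334% below -1. With miR-99a-3p, it was not well above background in the transfected channel. KRT16 was not well above background in the transfected channel and at least 1.35-fold lower, a bound that is lost when the highest undetected signal is taken as the limit. KRT7 had -0.52 ± 0.21, KRT20 -0.62 ± 0.22 and KRT75 0.66 ± 0.21. KRT83 (-0.28), KRT81 (-0.27), KRT19 (-0.19) and KRT18 (-0.25) all lay below 0 with spot errors of 0.20 to 0.21.

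The miR-150 arms, against the other PC3 mock RNA, each had few keratins past 1 or -1. With miR-150-3p, 1 of 25 detected keratins was above 1 and 3 below -1, against 2.69% and 6.68% of all detected genes. With both channels above background, KRT20 alone was past 1 by the brightest probe of each gene, against 2.62% above 1 and 2.28% below -1 of all such genes. KRT20 went from 382 to 1495, a log2 ratio of 1.97 ± 0.27, whereas with miR-150-5p it was 270 and 254 (-0.09 ± 0.21). The 3 lower keratins, KRT16, KRT37 and KRT6B, had no transfected signal well above background. KRT16 was at least 2.02-fold lower and KRT37 at least 2.12-fold lower, and no bound above 1 could be given for KRT6B. With the highest undetected signal as the limit, KRT16 and KRT37 were at least 1.32-fold and at least 1.40-fold lower. KRT8 had -0.07 ± 0.20 on its brightest probe and 1.02 ± 0.22 on another. KRT13 had -0.88 ± 0.28, KRT15 -0.62 ± 0.21, KRT83 -0.57 ± 0.21 and KRT19 -0.56 ± 0.21. PLEC and ITGB4, a hemidesmosomal integrin, were the 2 linker genes below -1 with this miRNA.

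With miR-150-5p, none of 27 detected keratins was above 1 and only KRT6B below -1, again with a dim transfected channel, against 0.664% and 4.49% of all detected genes. With both channels above background, no keratin was past 1, against 0.63% above 1 and 0.783% below -1 of all such genes. Hair keratins came nearest to -1 with both channels measured, KRT81 from 86849 to 46803 (-0.89 ± 0.22) and KRT83 from 8112 to 4668 (-0.80 ± 0.22). KRT37 went from 54.5 to 109 (1.00 ± 0.26), just inside the limit of 1, and KRT15 from 6094 to 8144 (0.42 ± 0.21). KRT7, KRT8, KRT18 and KRT19 lay between -0.16 and 0.16.

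Few keratins were past 1 or -1 on the arrays of FOXQ1-silenced PANC-1. With si-FOXQ1-1, none of 17 detected keratins was above 1 and 2 lay below -1, against 0.905% and 3.31% of all detected genes. Both, KRT13 and KRT9, were dim in the transfected channel, with mock signals of 28.6 and 34.3. With both channels above background none was past 1, against 0.883% above 1 and 0.366% below -1 of all such genes. With si-FOXQ1-2, none of 17 was past 1 in either direction, against 0.412% above and 3.29% below, or 0.344% and 0.374% with both channels above background. KRT8 went from 19231 to 12725 (log2 ratio -0.60 ± 0.21) with the first siRNA and from 16282 to 13923 (-0.23 ± 0.21) with the second. KRT18 had -0.35 ± 0.21 and -0.07 ± 0.20, and KRT19 -0.28 ± 0.21 and -0.25 ± 0.21. KRT80 differed between the siRNAs, 0.06 ± 0.20 with the first and 0.61 ± 0.21 with the second, and KRT32 likewise, -0.26 ± 0.23 and 0.71 ± 0.23. KRT7 and KRT81 lay within their errors of 0 with both. The 2 siRNA arrays share their mock RNA.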

How the data were processed

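The members, classes and gene lists were chosen with earlier results of these data known. RNA was hybridised on Agilent arrays read with Feature Extraction 10.7.3.1, per the file headers. The deposited processed signal intensities of both dyes were background-subtracted and dye-normalized within each array by the authors' software, the deposited ratios are its log10 of Cy5 over Cy3, and the deposited flags mark background, saturation and outliers. The authors' series value table held the same ratios on all 8 arrays. From these, log2 ratios were computed, outlier spots (81 to 178 per array) left out, and the brightest probe taken per gene. No spot was saturated. The precision of a ratio is limited by 1 array per condition.

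A channel not well above background was replaced by the higher of its own signal and the lowest signal well above background in that channel, which gives the bounds. For mock lines, log2 Cy3 signals minus each array's 75th percentile were averaged within the pairs above and fitted with limma 3.58.1 (R 4.3.3, 1 residual and 2.48 prior degrees of freedom), with Benjamini-Hochberg adjustment over 22752 genes. The plan had treated the 8 mock channels as samples. Averaging, with a limit of 1.25 times the spot noise, was chosen after the values were seen. In data simulated for FaDu mock against PC3 mock on 22752 genes, 91% of genes changed by 4 log2 units and 10% of those changed by 2 were recovered. Every keratin well above background in some channel is described by class, with values in full for KRT4, KRT5, KRT6A, KRT6B, KRT6C, KRT7, KRT8, KRT10, KRT13, KRT14, KRT15, KRT16, KRT17, KRT18, KRT19, KRT80, KRT81, KRT86 and any other keratin past 1 or -1 with both channels measured, and of the other lists the 3 members with the largest values on an array or between mock lines. Others named were chosen after their values were seen. Alternatives covered background correction, scaling, filters, probes, outliers, controls and left-out mock channels. Python 3.11.15 was used for the rest.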

Additional observations from a re-analysis of the deposited data

Results flagged for a closer look

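KRT83 and KRT80 differed between the cell lines given miR-99a-3p, past 1 log2 unit in opposite directions. The difference of the log2 ratios, FaDu minus PC3, was 2.62 for KRT83 and 2.14 for KRT80, with combined spot errors of 0.34 and 0.32. It was not tested, since each line had 1 array. Across the settings tried, KRT83 lay between 1.10 and 1.61 in FaDu and between -1.45 and -1.38 in PC3, and KRT80 between 1.00 and 1.05 and between -1.18 and -0.95. Over the 4 PC3 mock channels, none of the 20 keratins measured in all of them had 1 channel far from the rest.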

How the results depend on the processing

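No paired analysis was possible because no transfection was repeated. Slide row could not be fitted with the averaged mock samples, since no residual degree of freedom was left. Of the main results under the alternatives, 189 values kept within their limits and 30 moved. Counts of keratins past 1 or -1 rested on dim channels. With no filter, the counts were 1 for FaDu miR-99a-5p, 3 for PC3 miR-150-5p, 9 for PC3 miR-150-3p, 6 for PC3 miR-100-3p, 5 for si-FOXQ1-1 and 2 for si-FOXQ1-2, and the FaDu miR-99a-3p median was 0, since many dim probes have a deposited ratio of exactly 0. With both channels above background, they were 0 for PC3 miR-150-5p, 1 for PC3 miR-150-3p, 5 for PC3 miR-99a-3p, 1 for PC3 miR-100-3p and 0 for si-FOXQ1-1. With normexp and loess, they were 10 for FaDu miR-99a-3p (4 above 1 and 6 below -1), 0 for PC3 miR-150-5p, 1 for PC3 miR-150-3p, 3 for PC3 miR-99a-3p, 1 for PC3 miR-100-3p and 0 for si-FOXQ1-1, and the FaDu miR-99a-3p median was 0.26. With the mean mock of a line as control, the PC3 and PANC-1 counts were these same 0, 1, 3, 1 and 0, and the FaDu miR-99a-3p median was 0.22. The cause of these shifts was not tested beyond the construction of each setting.

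Between mock lines, requiring the Cy3 call on all 8 arrays left fewer keratins higher and fewer lower for FaDu against PC3. It also left fewer higher for FaDu against PANC-1 and fewer lower for PANC-1 against PC3, since keratins silent in a line are no longer counted. Unscaled signals gave 2 lower for FaDu against PANC-1. Leaving out 1 mock channel at a time gave 13 to 13 higher and 6 to 6 lower for FaDu against PC3, 13 to 15 and 4 to 5 for FaDu against PANC-1, and 4 to 4 and 8 to 10 for PANC-1 against PC3. Counting each of the 8 channels as a sample, an alternative chosen after seeing the data, gave 14 and 6, 14 and 4, and 4 and 10. Slide row fitted on these 8 channels, chosen at the same point, gave 14 and 7, 14 and 5, and 4 and 8, and the percentile over probes detected on all arrays kept every count within 1.5 times. Single calls that changed were near the limits, such as KRT18 for FaDu against PC3 (0.80 with quantile normalization). Under the settings run, no called value changed sign.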
